A study of Mus musculus with 16 samples.

Results

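Microglia sorted from the mouse brain were compared with Ly6C+ monocytes sorted from bone marrow, using the 4 brain and the 4 marrow libraries of a set of 16 bulk RNA-seq libraries. The other 8 libraries, from cornea macrophages and retinal microglia, entered only 1 alternative fit. Libraries were assigned to a population by their title, source and population label. All animals were adult C57BL/6 mice aged 8 to 10 weeks, and no transgene, knockout or treatment is named for them.

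Brain microglia came from whole brain and were gated as CD45+CD11b+ cells, a gate that brain border macrophages and blood leukocytes left in the tissue also enter. Marrow monocytes came from whole bone marrow and were gated as CD45+CD11b+CD115+Ly6C+ cells. The description field of all 8 libraries speaks of retinal microglia from 10 pooled mice, against title, source and population of the same libraries, so the number of animals behind a library was taken as unknown. Nothing says that the libraries of a population came from separate animals, and the p-values below therefore measure the spread between these libraries, which may be technical. Tissue handling is described for cornea and retina but not for brain or marrow.

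Microglia are the resident macrophages of the brain parenchyma. They arise from yolk sac progenitors, renew themselves locally, depend on signals through CSF1R and the TGF-beta receptors, and survey the tissue with motile processes that follow extracellular nucleotides. Ly6C+ monocytes are made in the bone marrow from dividing progenitors, leave it through the chemokine receptor CCR2, circulate briefly and enter tissues, where they can become macrophages or dendritic cells. Both cell types rely on the transcription factor PU.1, the product of Spi1.

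The 3 groups of promoters below show the letters that were searched beside the main differences. Each is a RefSeq promoter of build GRCm38.p6, from 250 bases before to 50 bases after the annotated gene start, printed 5′ to 3′ on the gene's strand, with the motif or its reverse complement in capitals. The promoters printed were chosen because they hold the motif.

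GAGGAAG, a sequence bound by PU.1, was looked for on both strands because Spi1 was measured at like levels in both populations. The homeostatic microglia and classical monocyte genes were not, and whether PU.1 acts on them was not tested. A gene was counted when any of its listed promoters held the motif. GAGGAAG was held by 15.4% of all 27025 genes with a promoter, by 8 of 23 homeostatic microglia genes (34.8%) and by 6 of 24 classical monocyte genes (25.0%). Fcrls and C1qc were high in microglia and Ly6c2 in monocytes, and RefSeq lists 2 promoters for Ly6c2, of which the first is shown.
Fcrls, chr3:87263475-87263774, minus strand: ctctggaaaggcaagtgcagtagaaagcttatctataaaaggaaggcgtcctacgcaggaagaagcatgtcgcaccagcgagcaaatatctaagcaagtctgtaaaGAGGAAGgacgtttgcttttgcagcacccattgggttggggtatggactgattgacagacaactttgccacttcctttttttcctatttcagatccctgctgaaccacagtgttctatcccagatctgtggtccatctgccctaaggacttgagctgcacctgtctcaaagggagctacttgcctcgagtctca
C1qc, chr4:136892865-136893164, minus strand: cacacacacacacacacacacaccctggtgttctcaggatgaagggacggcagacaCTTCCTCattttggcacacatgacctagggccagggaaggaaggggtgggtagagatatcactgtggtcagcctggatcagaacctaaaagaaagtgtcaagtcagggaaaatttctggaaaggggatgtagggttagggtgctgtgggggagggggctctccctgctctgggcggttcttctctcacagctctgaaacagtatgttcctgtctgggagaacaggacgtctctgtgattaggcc
Ly6c2, chr15:75111922-75112221, minus strand: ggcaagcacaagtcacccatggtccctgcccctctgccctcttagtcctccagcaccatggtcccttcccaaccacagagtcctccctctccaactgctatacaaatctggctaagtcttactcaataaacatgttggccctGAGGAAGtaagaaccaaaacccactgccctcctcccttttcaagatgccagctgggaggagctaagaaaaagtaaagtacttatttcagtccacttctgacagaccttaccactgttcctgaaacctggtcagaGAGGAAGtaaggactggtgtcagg

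TTTCNNTTTC, the core of the interferon-stimulated response element, was held by 3.99% of all genes with a promoter and by 11 of 18 genes of the interferon-response list (61.1%). Isg15 holds 3 overlapping copies on the opposite strand and Ifit3 holds 2 copies on its own strand, and both genes were lower in microglia.
Isg15, chr4:156200769-156201068, minus strand: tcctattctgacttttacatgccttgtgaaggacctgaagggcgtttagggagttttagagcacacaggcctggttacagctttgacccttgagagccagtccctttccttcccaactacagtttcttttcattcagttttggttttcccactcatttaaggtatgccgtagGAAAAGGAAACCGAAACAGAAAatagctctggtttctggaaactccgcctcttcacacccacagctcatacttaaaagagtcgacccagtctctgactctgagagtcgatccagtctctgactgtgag
Ifit3, chr19:34583279-34583578, plus strand: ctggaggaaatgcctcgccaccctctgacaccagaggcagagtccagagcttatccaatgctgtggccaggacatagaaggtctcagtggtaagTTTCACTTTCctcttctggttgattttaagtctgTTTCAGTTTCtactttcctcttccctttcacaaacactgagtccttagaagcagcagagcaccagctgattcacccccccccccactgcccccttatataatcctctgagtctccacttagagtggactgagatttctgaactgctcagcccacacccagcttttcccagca

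CCAAT, the NF-Y motif, and TTTGAA, a cell cycle homology region, were searched in cell-cycle genes. CCAAT was held by 41.1% of all genes with a promoter and by 20 of 25 cell-cycle genes (80.0%), TTTGAA by 20.2% of all and by 9 of 25 (36.0%). Top2a holds CCAAT at 6 places and Ccnb2 at 3, and both genes were close to 0 in microglia. A match is a string of letters in a window and was not tested as a binding site.
Top2a, chr11:99024140-99024439, minus strand: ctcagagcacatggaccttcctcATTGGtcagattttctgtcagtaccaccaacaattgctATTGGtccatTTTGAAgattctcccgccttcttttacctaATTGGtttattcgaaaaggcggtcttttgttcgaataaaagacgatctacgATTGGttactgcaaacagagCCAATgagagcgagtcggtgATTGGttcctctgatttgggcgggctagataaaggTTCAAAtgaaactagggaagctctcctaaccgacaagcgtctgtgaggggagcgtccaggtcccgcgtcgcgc
Ccnb2, chr9:70421505-70421804, minus strand: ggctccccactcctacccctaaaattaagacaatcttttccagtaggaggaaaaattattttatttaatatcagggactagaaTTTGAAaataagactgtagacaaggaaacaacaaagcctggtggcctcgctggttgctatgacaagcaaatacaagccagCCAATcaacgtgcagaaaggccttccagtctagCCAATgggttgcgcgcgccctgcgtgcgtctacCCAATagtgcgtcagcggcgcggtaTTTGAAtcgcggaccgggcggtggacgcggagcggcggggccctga

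The brain and marrow populations differed in most genes measured. Of 45664 gene entries in the deposited count table, 24188 had a count in at least 1 of the 8 libraries, and 13309 passed the filter on low counts and were tested. A gene was called when its adjusted p, from the quasi-likelihood test of edgeR and adjusted over all 13309 genes by Benjamini-Hochberg, was under 0.05. In brain microglia 4456 genes were higher (33.5%) and 4486 were lower (33.7%) than in marrow monocytes, 67.2% in all. At least 2-fold, 2970 genes were higher (22.3%) and 2871 were lower (21.6%), or 43.9% in all. The median log2 fold change over all tested genes was 0.01. These shares are the background against which the counts of each gene list below are to be read. All log2 fold changes are brain microglia over marrow monocytes, and levels are CPM, the count of a gene scaled to the TMM-adjusted total of its library. In such bulk data, fewer cells of a type and less RNA per cell cannot be told apart.

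Large differences were many in both directions. Among called genes, 788 were higher in microglia and 766 were lower by a log2 fold change of 4 or more, and 857 and 674 by 2 to 4. All 4 microglia libraries lay above all 4 monocyte libraries for 4102 genes (30.8%), and below them for 4219 genes (31.7%). The libraries of a population resembled each other closely, with Spearman correlations across genes of 0.976 to 0.983 within microglia and 0.975 to 0.989 within monocytes, against 0.665 to 0.685 between the populations. Total counts were 8677418 to 12848012 in brain libraries and 8910707 to 20705066 in marrow libraries. Of the marrow libraries, library 1 was the deepest and the only one of the 8 read on another sequencer lane.

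**Figure D1:**
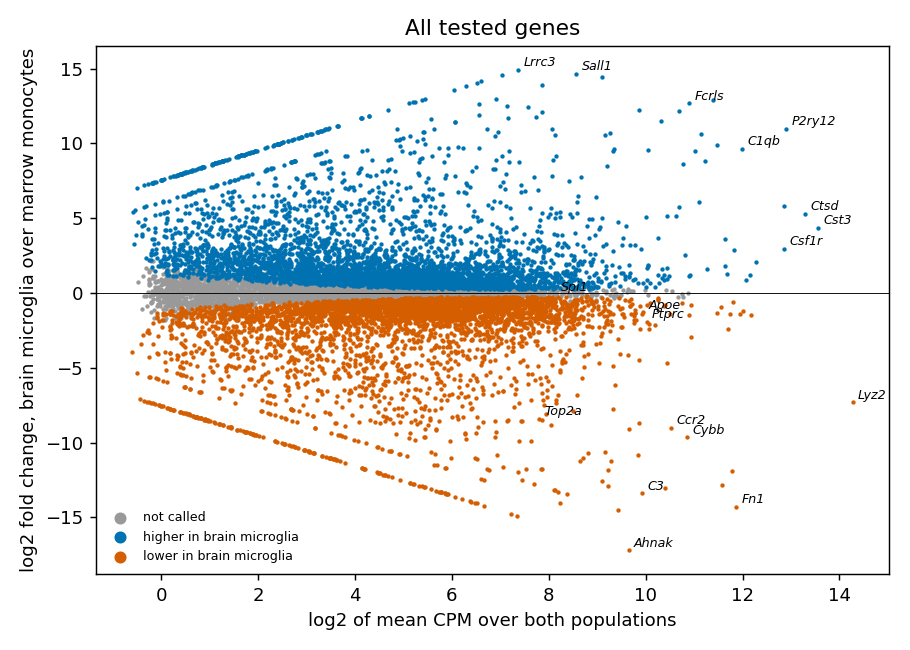
Each point is 1 of 13309 tested genes, with the log2 of its mean CPM over both populations on the x axis and its log2 fold change, brain microglia over marrow monocytes, on the y axis. Blue genes were called higher in microglia, orange genes lower and grey genes were not called; the straight bands at the outer edges are genes with no or few counts in one of the populations. Lyz2, Fn1 and Ahnak lie low on the right and P2ry12 and Cst3 lie high, while Spi1 lies at 0.

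The genes behind the sort gates were first examined as a check of the labels. Itgam, which encodes CD11b, had 1588, 1255, 1715 and 1595 CPM in the microglia libraries, against 959, 911, 1006 and 916 CPM in the monocyte libraries. It was thus present in all 8 libraries, with no overlap, and the log2 fold change was 0.70 ± 0.11 (SE; edgeR adjusted p = 0.000122). Ptprc, which encodes CD45, had 475, 436, 395 and 443 CPM in microglia and 1406, 1552, 1595 and 2008 CPM in monocytes. Every microglia library was below every monocyte library, by a log2 fold change of -1.91 ± 0.13 (edgeR adjusted p = 3.77e-08). Csf1r, which encodes CD115, the receptor for CSF1 and interleukin-34, averaged 13226 ± 1497 CPM in microglia and 1693 ± 104 CPM in monocytes (SD, n = 4 each).

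Ly6c2, one of the genes of the Ly6C antigen, had 0, 0.563, 0.219 and 0.481 CPM in microglia, against 2904, 2578, 2691 and 2655 CPM in monocytes. The antigen's gene was thus close to 0 in every microglia library and abundant in every monocyte library. Only the monocyte gate used Ly6C, so the high monocyte level is no finding, while the low microglia level was not set by a gate. The log2 fold change of -13.02 ± 0.31 for Ly6c2 is therefore partly set by the sort. Its near-identical neighbour Ly6c1 had no count in microglia and averaged 20.1 ± 6.48 CPM in monocytes, and how reads were shared between these copies is not given. Cx3cr1, the receptor for the neuronal chemokine fractalkine, had 5538, 5212, 5601 and 7206 CPM in microglia and 366, 443, 427 and 708 CPM in monocytes. It was not part of either gate, and its log2 fold change was 3.60 ± 0.21 (edgeR adjusted p = 1.01e-08).

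All 28 measured genes of the homeostatic microglia list were higher in brain microglia, against 33.5% of all tested genes, and their median log2 fold change was 9.16, against 0.01 over all. P2ry12, the ADP receptor that steers microglial processes, had 14410.3, 15443, 15271 and 15781 CPM in microglia and 5.27, 9.02, 8.94 and 7.42 CPM in monocytes. The microglia libraries lay close together and far above the monocytes, which held a low but measurable level (log2 fold change 10.98 ± 0.21, edgeR adjusted p = 1.73e-12). Tmem119, a microglial surface protein of unsettled function, had 3694, 4139, 4163 and 4679.9 CPM in microglia and 6.11, 4.51, 4.92 and 7.11 CPM in monocytes, a log2 fold change of 9.50 ± 0.19.

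Fcrls, an Fc receptor-like scavenger receptor of mouse, had 3277, 3361, 4347 and 4268 CPM in microglia and 0.246, 0.770, 0.301 and 1.09 CPM in monocytes. Its promoter is the first printed above, and its log2 fold change was 12.69 ± 0.33. Sparc (a secreted matrix-binding protein), Siglech (a sialic acid-binding lectin) and Olfml3 (a secreted olfactomedin protein) had log2 fold changes of 12.92, 12.24 and 12.17. Gpr34, a lysophosphatidylserine receptor, averaged 4498 ± 265 CPM in microglia and 2.81 ± 0.539 CPM in monocytes. Slc2a5, a fructose transporter, averaged 1102 ± 105 CPM in microglia and had 2 counts over the 4 monocyte libraries, a ratio of pooled CPM of 28762 with an exact 95% counting interval of 7962 to 237508. At the other end of the list, Csf3r, the receptor for the granulocyte growth factor G-CSF, averaged 419 ± 41.0 CPM in microglia and 273 ± 9.97 CPM in monocytes, a log2 fold change of 0.62 ± 0.10.

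**Figure D2:**
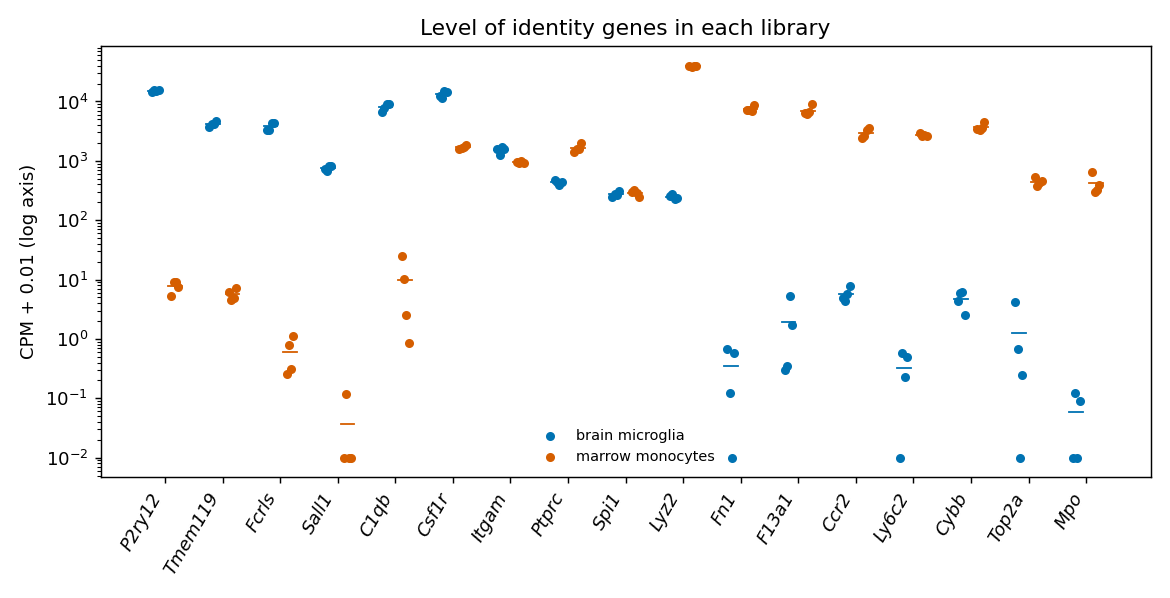
Points are the CPM of single libraries plus 0.01, on a log axis, with microglia in blue to the left and monocytes in orange to the right of each gene; short lines mark the mean of 4 libraries. From P2ry12 to Csf1r the microglia lie higher, Spi1 overlaps, and from Lyz2 to Mpo the microglia lie lower, with Lyz2 at 249.7 CPM on average in microglia against 39286 CPM in monocytes.

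All 28 measured genes of the classical monocyte list were lower in brain microglia, against 33.7% of all tested genes. The median log2 fold change was -11.80, or -11.28 with genes that had no count in microglia set at their bound. Lyz2, the lysozyme of myeloid cells, had 259, 278, 227 and 235 CPM in microglia and 40269, 38583, 39416 and 38877 CPM in monocytes. It was not absent from microglia (log2 fold change -7.30 ± 0.13, edgeR adjusted p = 9.42e-13). Ccr2, the receptor by which monocytes leave the marrow, had 4.92, 4.39, 5.80 and 7.85 CPM in microglia and 2403, 2652, 3247 and 3518 CPM in monocytes, a log2 fold change of -8.99 ± 0.23.

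F13a1, a coagulation factor XIII subunit, had 0.284, 0.338, 5.36 and 1.68 CPM in microglia and 6363, 6202, 6528 and 8981 CPM in monocytes. Brain library 3 stood highest among the microglia, as it also did for haemoglobin genes, and the log2 fold change over all 8 libraries was -11.86 ± 0.61. Fn1, fibronectin, had 0.662, 0.113, 0 and 0.561 CPM in microglia and 7238, 7147, 6896 and 8685 CPM in monocytes, a log2 fold change of -14.29 ± 0.35, the most negative among the abundant genes with at least 4 counts in microglia.

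Ahnak, a giant scaffold protein beneath the plasma membrane, had no count in any microglia library and 1512, 1735, 1483 and 1691 CPM in the monocyte libraries. With the floor set at 3 counts summed over the microglia libraries, it was at least 21759-fold lower in microglia. The calcium-binding S100a4 averaged 0.103 ± 0.0778 CPM in microglia and 69.8 ± 20.1 CPM in monocytes, and S100a6 0.111 ± 0.0989 CPM in microglia and 459 ± 126 CPM in monocytes. Vcan (versican, a matrix proteoglycan) and Plac8 had log2 fold changes of -7.85 and -10.64. The intermediate filament gene Vim averaged 4.49 ± 0.477 CPM in microglia and 1867 ± 56.0 CPM in monocytes. Closest to 0 in the list was Thbs1, thrombospondin 1, at -2.05 ± 0.20.

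Per kilobase of the deposited gene length, which allows levels of genes to be compared, Cst3 stood in microglia at 18159.9 CPM per kb, Ctsd at 7769, C1qb at 7488, P2ry12 at 5981, Ctss at 5941 and Csf1r at 2707. Cst3, cystatin C, inhibits cysteine proteases, and had 20605, 20821, 25982 and 24553 CPM in microglia and 1331, 1267, 1035 and 881 CPM in monocytes. Ctsd and C1qb lay within the spread between libraries of each other. In monocytes Lyz2 stood at 31032 CPM per kb, the chitinase-like Chil3 at 3751, F13a1 at 1787, Ly6c2 at 988 and Fn1 at 641. Other genes lay between these, and no full ranking is given.

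Transcription factors differed in both directions. Of 18 measured factors of the microglial list, 14 were higher in microglia, 3 were lower (Irf2, Atf3 and Tfec) and 1, Spi1, was not called, with a median log2 fold change of 1.77. The call for Irf2 (-0.29 ± 0.12, edgeR adjusted p = 0.043) ended in 6 of the 8 fits that left out 1 library. Spi1 had 241, 279, 263 and 305 CPM in microglia and 299, 321, 289 and 245 CPM in monocytes. The libraries overlapped, and the log2 fold change was -0.08 ± 0.12 (edgeR adjusted p = 0.54). Irf8, a partner of PU.1 in both lineages, averaged 574 ± 48.8 CPM in microglia and 429 ± 54.7 CPM in monocytes, a log2 fold change of 0.42 ± 0.12.

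Sall1, a zinc finger repressor needed for microglial identity in mice, had 727, 673, 823 and 815 CPM in microglia and 1 count in all monocyte libraries. The pooled ratio was 39806, with an exact 95% counting interval from 7144 to 1572320. Its relative Sall3 averaged 189 ± 14.8 CPM in microglia, also against 1 read count in monocytes. Bhlhe41, Maf, Mef2c and Smad3, the last a carrier of TGF-beta signals, had log2 fold changes of 10.49, 5.30, 3.11 and 2.24.

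Of 22 measured factors of the monocyte and progenitor list, 17 were lower in microglia and 4 were higher, with a median log2 fold change of -3.15. Without any 1 of the brain libraries or without marrow library 4, where 24 members were tested, the median was between -4.24 and -3.86. Klf2, a zinc finger factor of circulating leukocytes, had 8.23, 13.2, 10.4 and 5.69 CPM in microglia and 204, 302, 194 and 151 CPM in monocytes, a log2 fold change of -4.52 ± 0.28. Klf4, which supports monocyte differentiation, Nr4a1, which is needed for Ly6C-low monocytes in mice, and Cebpb had log2 fold changes of -4.45, -4.80 and -2.26. Myb, a factor of blood progenitors, averaged 0.221 ± 0.381 CPM in microglia and 18.7 ± 4.30 CPM in monocytes. Cebpe, a granulocyte factor, had no count in microglia and 4.83 ± 2.44 CPM in monocytes. The factors that went the other way were Bach2, Myc, Tcf4 and Cebpa. Myc had 47.4, 43.3, 36.1 and 34.4 CPM in microglia and 7.19, 6.05, 3.92 and 2.89 CPM in monocytes, a log2 fold change of 2.99 ± 0.27 (edgeR adjusted p = 6.87e-07), although most cell-cycle genes were lower in microglia. Cebpa, a factor of the common myeloid programme, averaged 65.1 ± 14.8 CPM in microglia and 30.5 ± 5.71 CPM in monocytes.

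**Figure D3:**
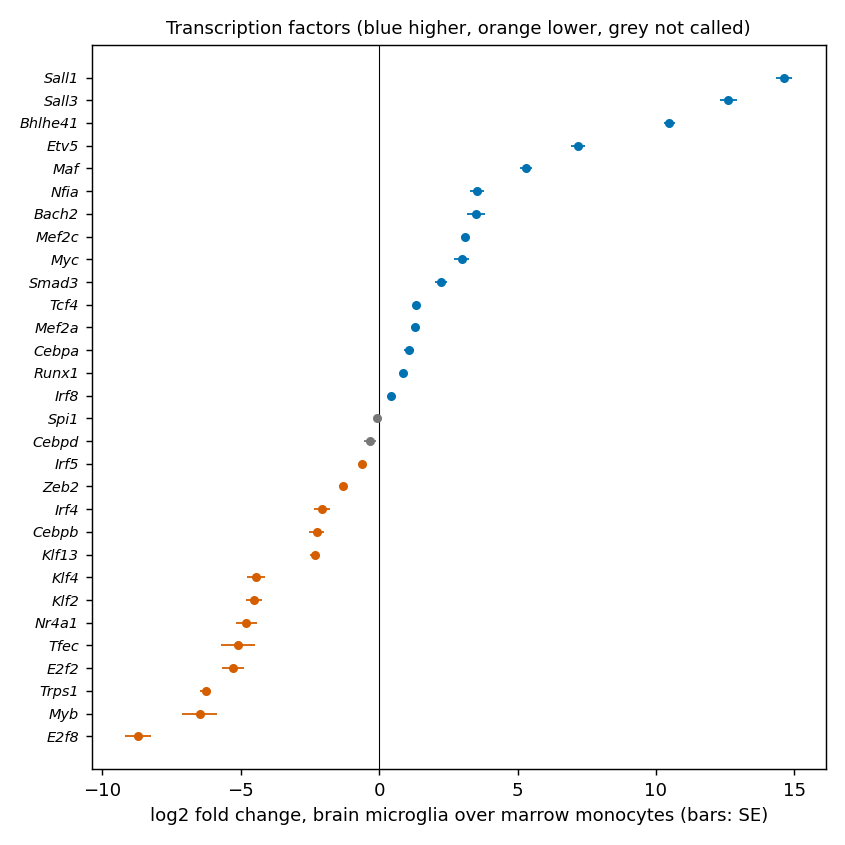
Points are log2 fold changes, brain microglia over marrow monocytes, of 30 transcription factors, with bars for the SE of the edgeR fit; blue was called higher in microglia, orange lower and grey not called. Sall1 stands highest at 14.63, a fitted value against 1 count in monocytes, Spi1 lies at -0.08, and E2f8 stands lowest at -8.71.

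Growth factor receptors differed by ligand. Of 9 measured genes of the colony-stimulating factor list, 3 were higher (Csf1r, Csf1 and Csf3r) and 5 were lower in microglia, with a median log2 fold change of -1.26. Csf1r had a log2 fold change of 2.97 ± 0.11, and Csf1, its ligand, averaged 34.4 ± 4.59 CPM in microglia and 6.70 ± 0.846 CPM in monocytes. Csf2ra, the GM-CSF receptor alpha chain, averaged 34.9 ± 9.59 CPM in microglia and 211 ± 27.2 CPM in monocytes, and Flt3, the receptor of dendritic cell progenitors, 1.28 ± 1.13 CPM in microglia and 40.0 ± 12.7 CPM in monocytes.

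In the TGF-beta pathway 12 of 18 measured genes were higher in microglia and 3 were lower, with a median log2 fold change of 2.24. The median was 0.46 with all 16 libraries in the fit, where 23 members were tested, and 0.64 with no filter, where 22 were. Tgfbr1, a receptor kinase, had 3318, 2349, 3449.9 and 3152 CPM in microglia and 81.6, 84.9, 88.4 and 92.0 CPM in monocytes. The log2 fold change was 5.14 ± 0.15 (edgeR adjusted p = 2.59e-11), and that of Tgfbr2, its partner, was 3.27 ± 0.11. The feedback inhibitors Smad7, Ski and Skil had log2 fold changes of 4.28, 2.60 and 2.23. The ligand Tgfb1 had 132, 289, 253 and 304 CPM in microglia and 156, 179, 140.5 and 234 CPM in monocytes. These overlapped, and the difference of 0.46 ± 0.23 was not called (edgeR adjusted p = 0.0977), but it was 0.69 and called without brain library 1 (edgeR adjusted p = 0.00414) and 0.62 and called without marrow library 4 (edgeR adjusted p = 0.0351). Tgfbi, a secreted matrix protein induced by TGF-beta, went against its receptors, with 86.2 ± 15.7 CPM in microglia and 1495 ± 39.6 CPM in monocytes. Nrros, which anchors latent TGF-beta on microglia, and Smad4, the common SMAD, were lower by log2 fold changes of -0.56 and -0.87.

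Receptors for nucleotides and chemokines differed in both directions. Of all tested genes, 33.5% were higher in microglia and 33.7% were lower. In the purinergic list 7 of 15 measured genes were higher in microglia and 5 were lower, with a median log2 fold change of 0.55. Besides P2ry12, its relative P2ry13 (8.60), the adenosine receptor Adora3 (5.12) and the ectonucleotidase Entpd1 (4.40) were higher on the log2 scale, as were P2ry6 (2.29), the UDP receptor of microglial phagocytosis, and P2rx7 (1.64), an ATP-gated channel. P2ry1, another ADP receptor, averaged 0.0274 ± 0.0547 CPM in microglia and 44.3 ± 8.64 CPM in monocytes, and Adora2b 0.115 ± 0.133 CPM in microglia and 49.2 ± 8.03 CPM in monocytes. Of 17 measured chemoattractant receptors 8 were higher and 5 were lower, with a median of 1.14. The median was 0.73 to 0.77 without any 1 of the brain libraries, where 18 members were tested. It was 0.96 without marrow library 3 and 0.95 without marrow library 4. C3ar1 and C5ar1, the receptors of the complement peptides C3a and C5a, had log2 fold changes of 5.40 and 3.39. Cxcr4, which retains cells in the marrow, had 2 counts in microglia and 23.9 ± 12.2 CPM in monocytes, so that monocytes stood higher by a pooled ratio of 560.2 (95% counting interval 155 to 4630.4). Ccr1 was lower by a log2 fold change of -1.75.

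Of 20 measured integrins and adhesion molecules 12 were higher in microglia and 7 were lower, with a median log2 fold change of 1.11. Higher were Itgb5 (5.75), a partner of the alpha-v chain, Itga6 (5.30), a laminin receptor chain, and the junctional adhesion molecule Jam2 (11.68). Lower were Itga4 (-8.10) and Itgb7 (-11.20), the chains of the homing receptor for gut and inflamed vessels, together with Itgal (-7.13), the LFA-1 chain, and Cd44 (-7.37), the hyaluronan receptor. Itgb7 had 0, 1.69, 0.328 and 0.240 CPM in microglia and 1247, 1225, 1238 and 1245 CPM in monocytes, among the least variable of the abundant genes across monocyte libraries. Itgb2, the chain that pairs with Itgam and Itgal, was lower by a log2 fold change of -0.69 ± 0.10.

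Chains of C1q, of the classical complement pathway, were higher in microglia, and C3, Cfb and Cfp were lower. C4b was not called (log2 fold change 0.50 ± 0.38, edgeR adjusted p = 0.268), and C2 had too few counts to be tested. Of 14 measured genes of the list 9 were higher in microglia and 3 were lower, with a median log2 fold change of 3.30, which was 3.98 without marrow library 1 and 1.92 with no filter, where 20 members were tested. C1qb, a chain of the classical pathway's recognition molecule, had 6695, 7859, 8949 and 9085 CPM in microglia and 24.9, 10.3, 2.51 and 0.860 CPM in monocytes. The microglia lay far above all monocytes, whose libraries differed widely among themselves, and the log2 fold change was 9.65 ± 0.82. C1qa and C1qc had log2 fold changes of 9.56 and 9.92, and in monocytes both were likewise higher in libraries 1 and 2 than in 3 and 4, with C1qc at 12.9, 6.93, 1.21 and 1.02 CPM there. C3, the central component, had 0.0946, 0.225, 0.109 and 0.240 CPM in microglia and 1832, 1906, 1895 and 2152 CPM in monocytes, a log2 fold change of -13.39 ± 0.20. Cfp, properdin, which stabilizes the alternative pathway's convertase, averaged 0.950 ± 0.456 CPM in microglia and 350.3 ± 21.9 CPM in monocytes. Cfb, factor B, was lower by a log2 fold change of -6.34.

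Of 31 measured Toll-like, Fc and lectin receptors 19 were higher in microglia and 8 were lower, with a median log2 fold change of 0.82. Tlr3, a sensor of double-stranded RNA, averaged 178 ± 10.4 CPM in microglia and 5.50 ± 1.95 CPM in monocytes, whereas Tlr8, a sensor of single-stranded RNA, had no count in microglia and 86.2 ± 15.0 CPM in monocytes. The endotoxin receptor genes Cd14 and Tlr4 were higher by log2 fold changes of 3.88 and 1.93, and the Fc receptor Fcgr4 was not called (0.05 ± 0.29). Clec7a, the beta-glucan receptor dectin-1, had 25.3, 21.3, 27.3 and 24.9 CPM in microglia and 569, 568, 592 and 745 CPM in monocytes, a log2 fold change of -4.65 ± 0.14.

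Cytokine and chemokine genes were divided, with 10 of 23 measured genes higher in microglia and 6 lower, and a median log2 fold change of 0.42. The shares over all tested genes were 33.5% higher and 33.7% lower. Il1a averaged 98.6 ± 37.3 CPM in microglia and 0.0526 ± 0.0609 CPM in monocytes, and the chemokines Ccl12 and Ccl4 were higher by log2 fold changes of 8.12 and 3.48. The inflammatory genes Il1b and Tnf were low in both, with Il1b at 1.59 ± 0.353 CPM in microglia and 2.48 ± 1.24 CPM in monocytes and Tnf at 1.14 ± 1.20 CPM in microglia and 1.79 ± 0.625 CPM in monocytes, and neither was called, although Tnf was called lower without brain library 1 (-1.66, edgeR adjusted p = 0.0433). Ccl3 overlapped as well (log2 fold change 0.41 ± 0.32) and was not called, but without marrow library 1 it was higher in microglia by 0.86 (edgeR adjusted p = 0.0111). Ccl6 and Ccl9, chemokines that bind CCR1 in mice, were lower by -3.07 and -2.22. Of 18 measured immediate-early genes, which respond within minutes to stimulation or cell isolation, 7 were higher and 6 were lower, with a median of 0.46, which was 0.23 without brain library 1, 0.26 without marrow library 4 and 0.71 without marrow library 1. Jun had 728, 447, 583 and 597 CPM in microglia and 92.7, 98.8, 38.0 and 24.4 CPM in monocytes (log2 fold change 3.21 ± 0.38), and Egr1 averaged 33.4 ± 5.72 CPM in microglia and 0.653 ± 0.494 CPM in monocytes. Fos had 40.1, 34.4, 28.6 and 33.6 CPM in microglia and 309, 96.5, 30.7 and 23.4 CPM in monocytes. The log2 fold change was -1.76 ± 0.63 (edgeR adjusted p = 0.027), but the call ended without marrow library 1 (-0.56, edgeR adjusted p = 0.226) and without any 1 of the brain libraries, and without marrow libraries 1 and 2 it was 0.33.

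All 25 genes of the interferon-response list were lower in microglia, with a median log2 fold change of -4.15. Irf7, a factor that amplifies type I interferon production, had 8.61, 12.2, 6.24 and 7.37 CPM in microglia and 425, 551, 445 and 347 CPM in monocytes, a log2 fold change of -5.69 ± 0.22 (edgeR adjusted p = 3.29e-10). Isg15, a ubiquitin-like protein whose promoter is printed above, had 3.97, 6.08, 5.14 and 4.81 CPM in microglia and 46.9, 67.0, 47.1 and 37.0 CPM in monocytes. No library overlapped, and the log2 fold change was -3.31 ± 0.22. Ifit3, which has a near-identical copy so that its count is uncertain, had a log2 fold change of -3.57, and the antiviral genes Mx1 and Oas3 of -4.55 and -9.37. Ifitm3, a membrane protein that blocks virus entry, averaged 5.92 ± 1.64 CPM in microglia and 1285 ± 300.0 CPM in monocytes. The signal carrier Stat2 was lower by -2.38. Bst2 was nearest to 0 at -0.80, and its call ended with only the libraries whose titles carry a number range (-0.39, edgeR adjusted p = 0.16).

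**Figure D4:**
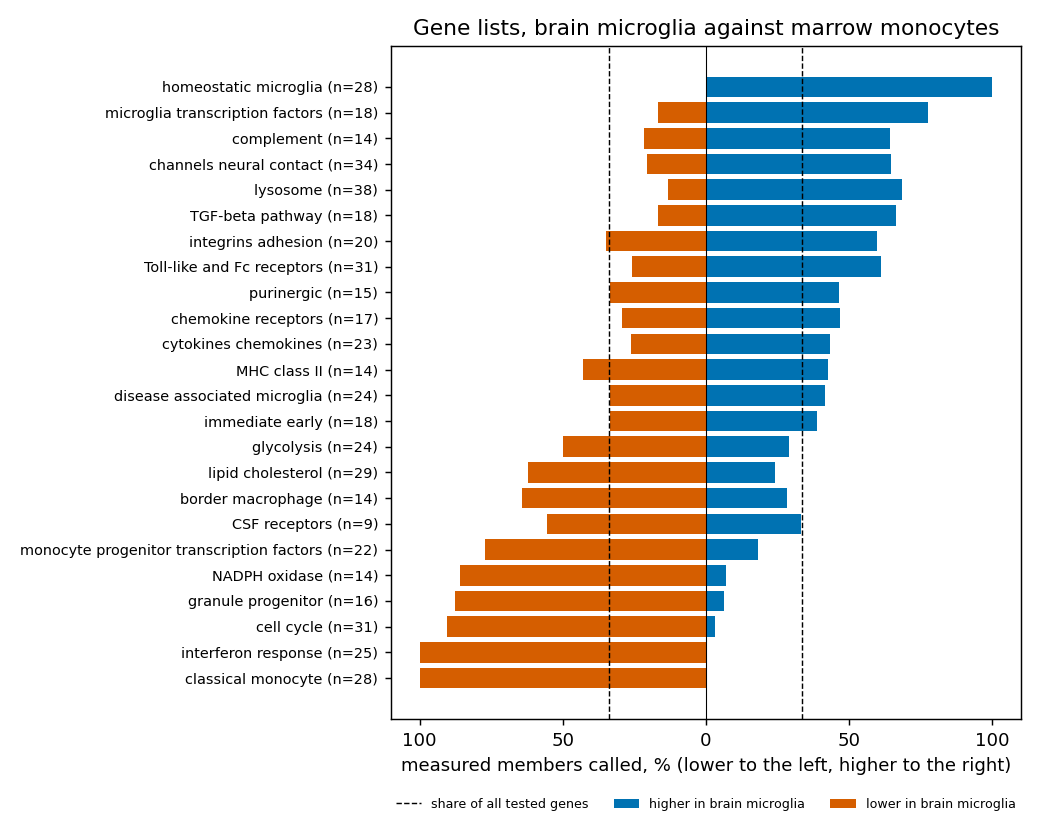
Bars give the share of measured members of each gene list called higher (blue, to the right) or lower (orange, to the left) in brain microglia against marrow monocytes, with the number of measured members in brackets. Dashed lines mark the same shares over all tested genes, 33.5% higher and 33.7% lower. The homeostatic microglia list reaches 28 of 28 on the right, and the interferon-response and classical monocyte lists reach 25 of 25 and 28 of 28 on the left.

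Of 14 measured genes of the NADPH oxidase and its antioxidant partners 12 were lower in microglia and 1 was higher, with a median log2 fold change of -1.33. Cybb, the catalytic subunit that makes superoxide, had 4.35, 5.85, 6.24 and 2.56 CPM in microglia and 3371, 3284, 3638 and 4578 CPM in monocytes. The log2 fold change was -9.63 ± 0.28 (edgeR adjusted p = 2.65e-11). Other subunits were nearer to each other in the populations, with Cyba at -0.60 and Ncf4 at 79.6 ± 9.08 CPM in microglia and 319 ± 28.3 CPM in monocytes, while Ncf1, at 413 ± 42.1 CPM in microglia and 345 ± 30.3 CPM in monocytes, was not called (edgeR adjusted p = 0.0526), though it was called, at 0.33 on the log2 scale, without brain library 3 (edgeR adjusted p = 0.0274), and also without brain library 1 or marrow library 4. Hvcn1, the proton channel that supports the oxidase, was the member that was higher, by 2.95 ± 0.15. Gpx1, glutathione peroxidase, averaged 445 ± 127 CPM in microglia and 3451 ± 662 CPM in monocytes.

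Lysosomal genes were mostly higher in microglia, with 26 of 38 measured genes higher, 5 lower and a median log2 fold change of 0.95. Ctsd, the aspartic protease cathepsin D, had 18524, 17366, 22828 and 19566 CPM in microglia and 604, 399, 481 and 513 CPM in monocytes, a log2 fold change of 5.29 ± 0.16. Ctsf and Lgmn, further lysosomal proteases, had 7.77 and 6.06, while Hexa (1.17), Cd68 (1.07) and Ctsb (0.88) moved less. The 5 lower genes were Psap, Npc2, Ctsc, Lipa and Tfeb, with log2 fold changes from -1.38 to -0.57. Psap, the precursor of the saposins, averaged 2187 ± 566 CPM in microglia and 5709.8 ± 761 CPM in monocytes. Lamp1, a lysosomal membrane protein, was not called at 1680.0 ± 54.2 CPM in microglia and 1774 ± 126 CPM in monocytes.

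Lipid genes leaned the other way, with 7 of 29 measured genes higher in microglia and 18 lower, and a median log2 fold change of -1.18. The cholesterol exporter Abca1 had 415, 311, 436 and 376 CPM in microglia and 7.49, 2.64, 5.83 and 12.7 CPM in monocytes (log2 fold change 5.71 ± 0.34), and Abcg1 was higher by 1.57 and the desaturase Scd2 by 1.59. Srebf2 and Sqle, of cholesterol synthesis, were lower by -2.03 and -1.60. Apoe, the main lipid carrier of the brain, had 608, 526, 576 and 602 CPM in microglia and 1907, 1405, 1292 and 1006 CPM in monocytes. Every microglia library was below every monocyte library (log2 fold change -1.28 ± 0.17, edgeR adjusted p = 1.99e-05). Lpl, lipoprotein lipase, was lower by -3.05 ± 0.23.

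Genes known to rise in disease-associated microglia showed no common direction, with 10 of 24 higher, 8 lower and a median log2 fold change of -0.07, which was 0.12 without brain library 1, 0.05 without brain library 2 and 0.04 without marrow library 1. Trem2, a lipid-sensing receptor, had 932, 1035, 1088 and 1199.6 CPM in microglia and 37.9, 35.0, 29.4 and 27.4 CPM in monocytes, and the tetraspanin Cd9 was higher by a log2 fold change of 6.39. Lgals3, galectin-3, averaged 2.97 ± 0.897 CPM in microglia and 1607 ± 111 CPM in monocytes. Axl, a receptor for apoptotic cells, was lower by -2.49 ± 0.25.

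The MHC class II list had no common direction, with 6 of 14 measured genes higher and 6 lower and a median log2 fold change of 0.19, which was 0.10 without marrow library 4. The class II chain H2-Aa had 3.31, 1.58, 0.109 and 1.04 CPM in microglia and 85.7, 89.3, 49.7 and 46.4 CPM in monocytes, a log2 fold change of -5.46 ± 0.48. H2-Ab1 (-2.97), Ciita (-4.46), the master regulator of these genes, and Cd40 (-7.53) were lower as well. Higher were the peptide-editing inhibitors H2-Oa (5.31) and H2-Ob (5.09) and the co-stimulatory Cd86 (3.07) and Cd83 (6.72).

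In the list of ion channels and molecules of contact with neurons 22 of 34 measured genes were higher in microglia and 7 were lower, with a median log2 fold change of 1.93. Kcnk13, the potassium channel THIK-1 that sets the resting potential of microglia, had 160.1, 165, 213 and 177 CPM in microglia and 0.148, 0.220, 0.703 and 1.09 CPM in monocytes, a log2 fold change of 8.43 ± 0.33. The semaphorin receptor Plxna4 (8.94) and the GABA receptor subunit Gabbr1 (8.67) were higher as well. Sema4d was not called (-0.25 ± 0.11, edgeR adjusted p = 0.073), but it was called lower without brain library 4 (-0.32, edgeR adjusted p = 0.0341), with total-count scaling and with limma-voom, and Sema4a and Plxnd1 were lower by -6.10 and -7.69. Neuronal markers were near 0 in the same libraries, with the 10 genes of that list summing to 1.24 to 4.73 CPM in microglia and 0.887 to 1.61 CPM in monocytes.

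Among glycolytic genes, members of one enzyme family differed in opposite directions. Of 24 measured genes 7 were higher and 12 were lower in microglia, with a median log2 fold change of -0.36. Among all tested genes 33.5% were higher and 33.7% lower. The fructose transporter Slc2a5 led the higher genes, followed by Ldhb (3.70), Pfkfb3 (1.76) and Hk2 (0.91), while Pfkp (-6.73), Pkm (-2.03), Eno1 (-1.71) and Hk3 (-0.46) were lower. Pfkp, the platelet-type phosphofructokinase, averaged 1.86 ± 0.853 CPM in microglia and 198 ± 9.44 CPM in monocytes, whereas Pfkl, the liver type, averaged 128 ± 14.2 CPM in microglia and 61.0 ± 8.67 CPM in monocytes. Gapdh had only 3.62 ± 0.394 CPM in microglia and 4.12 ± 0.942 CPM in monocytes, and as this gene has many near-identical pseudogenes and the handling of multi-mapping reads is not given, its counts are uncertain.

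Proliferation genes were low in microglia. Of 31 measured cell-cycle genes 28 were lower and 1 was higher, with a median log2 fold change of -3.95. Mki67, a marker of dividing cells, had 5.77, 2.14, 2.74 and 2.64 CPM in microglia and 537, 393, 462 and 492 CPM in monocytes, a log2 fold change of -7.13 ± 0.27. Top2a, topoisomerase II alpha, had 4.16, 0.675, 0 and 0.240 CPM in microglia and 529.8, 379, 416 and 460.1 CPM in monocytes, and Ccnb2, a mitotic cyclin, had 0.662, 1.35, 0 and 0.961 CPM in microglia and 117, 87.7, 101 and 94.9 CPM in monocytes. Both promoters are printed above. Mcm5, a subunit of the replicative helicase, was lower by -3.94, and Pcna, the sliding clamp of DNA replication, by -0.62, but the call for Pcna ended without brain library 1, marrow library 1 or marrow library 2 (edgeR adjusted p = 0.0623, 0.0905 and 0.0564). The gene that went the other way was Ccnd1, cyclin D1, with 23.1 ± 7.29 CPM in microglia and 0.678 ± 0.386 CPM in monocytes.

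Granule genes of neutrophils and their progenitors set the marrow libraries apart from each other as well as from the microglia. Of 16 measured genes of this list 14 were lower in microglia and 1, Cd63, was higher, with a median log2 fold change of -8.82, or -8.49 at the bounds. This median depended on single libraries, with the same 16 members tested. It was -12.56 without brain library 2, -7.77 without marrow library 1 and -7.07 without marrow libraries 1 and 2. Mpo, myeloperoxidase, had 2 counts in microglia and 643, 295, 328 and 394 CPM in monocytes, and Elane, neutrophil elastase, had no count in microglia and 254, 135, 113 and 172 CPM in monocytes, at least 2549-fold lower in microglia. Ngp, a neutrophil granule protein, had 0, 5.40, 0.219 and 0 CPM in microglia and 1178, 539, 85.5 and 50.1 CPM in monocytes. Brain library 2 had the highest Ngp level among microglia. S100a8, a calprotectin subunit, had 810.2, 412, 85.4 and 35.1 CPM in the monocyte libraries. These late granule genes, with Ltf and Retnlg, were high in marrow libraries 1 and 2, while Mmp8, a neutrophil collagenase with no count in microglia, had 336, 298, 295 and 363 CPM there.

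The erythroid list, like the granule list, was highest in marrow libraries 1 and 2, but not every list of other cells was. The lymphoid list summed to 629, 734, 635 and 709 CPM in monocyte libraries 1 to 4 and to 616 to 668 CPM in microglia. Ighm made up most of these sums, and only 2 of the 13 members were measured. The granule list summed to 174 to 221 CPM in microglia, of which Srgn and Cd63 made up most, and to 5392, 2600, 1078 and 1099.8 CPM in monocyte libraries 1 to 4. The erythroid list, mostly haemoglobin, summed to 6.72, 5.18, 55.7 and 6.41 CPM in microglia and 2751, 1819, 525 and 415 CPM in monocytes. The marrow levels of C1qb and Fos given above were also higher in libraries 1 and 2 than in 3 and 4. Their part in the differences between the populations was not tested. With marrow libraries 1 and 2 left out 8182 genes were called. The titles of marrow libraries 1 and 2 read BM, and those of 3 and 4 read BM-Mo with a number range. What this difference means is not given. In microglia, the astrocyte list summed to 279 to 299.9 CPM, nearly all of it Slc1a3 at 289 ± 12.4 CPM, while Gfap had no count. The oligodendrocyte list summed to 179.9 to 187 CPM in microglia and 423 to 440 CPM in monocytes. Of its 10 members only 3 were measured, with 1 higher in microglia, 1 lower and 1 not called, so these sums rest on few genes. Border macrophage genes were mostly lower in microglia, with 9 of 14 measured lower and 4 higher and a median log2 fold change of -3.98. Mrc1 was not called at 20.9 ± 7.40 CPM in microglia and 23.4 ± 2.32 CPM in monocytes. Ms4a7 was lower by -3.84 ± 0.59, and Lyve1 and Pf4 were too low to be tested. Among the 4 higher, Ccl24 had 8.89 ± 2.22 CPM in microglia and 0.709 ± 0.569 CPM in monocytes, a log2 fold change of 3.60 ± 0.59. In the neutrophil list 5 of 6 measured genes were lower in microglia, and in the endothelial and mural list 2 of 3. In the dendritic cell list 4 of 7 were higher and 3 lower, and in the blood progenitor list 2 of 6 were higher and 2 lower. Of 2 measured lymphoid genes 1 was higher, as was the 1 measured gene of the mast cell, basophil and megakaryocyte list.

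**Figure D5:**
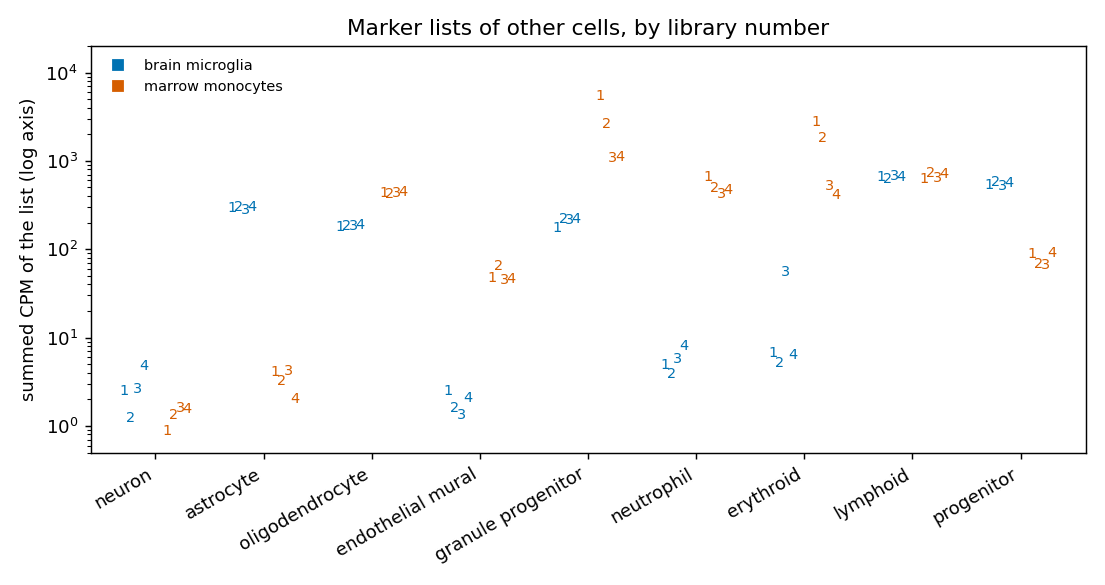
Digits 1 to 4 mark the library number within each population, blue for brain microglia to the left and orange for marrow monocytes to the right; the y axis is the summed CPM of each marker list, on a log axis. Monocyte libraries 1 and 2 stand above 3 and 4 for the granule and erythroid lists, and brain library 3, at 55.7 CPM, stands above the other microglia for the erythroid list.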

How the data were processed

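The authors deposited a table of raw read counts per gene, whole numbers without normalization, for 16 libraries, together with the length of each gene in bases (unit: other), per the file headers. Per the submitters' processing notes, CASAVA 1.8.2, Subread, featureCounts and limma were used with build GRCm38.p4; for the versions of the other tools, for strand and for multi-mapping reads, nothing was given in the sources used here. The labels' extraction text concerns part of the brainstem in a different line of mice, along with a stranded kit, so kit and strand are uncertain, and overlapping or antisense genes cannot be told apart. Lanes were read from the column headers.

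The members and gene lists were chosen with earlier results of these data known, so the counts over lists are descriptions. The lists, from textbook knowledge, are those named in the report, and members with too few counts were left out of list counts and medians. Genes were named by a rule: set members of each list, further called members with the largest changes, members against their list's direction, the extreme and the 10 most abundant genes of each population; a few genes that this rule names are not reported here. Mmp8, Ltf, Retnlg and Ngp, and the comparison of marrow libraries 1 and 2 with 3 and 4, were singled out after their values were seen. That split of the marrow libraries also follows their titles, BM against BM-Mo.

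The 4 brain and 4 marrow libraries were fitted with edgeR 4.0.16 (R 4.3.3) after filterByExpr (minimum count 10) and TMM scaling, with no covariate, and compared by its quasi-likelihood test and Benjamini-Hochberg adjustment; every adjusted p and SE comes from it, the SE being the absolute log2 fold change over the square root of F. The fit was tested on simulated data. Folds against a population with no count are bounds against 3 counts over the group; with 1 to 3 counts, pooled ratios carry exact 95% intervals, which cover counting error only. Total counts were 8677418 to 20705066 per library. Entries with date-like symbols numbered 27, took at most 0.211% of a library and were kept apart. GENCODE vM21 held 41918 of 45662 symbols. No library was a copy of another: chi-square per degree of freedom between replicates was 12.1 to 61.5. Alternatives were RLE and total-count scaling, DESeq2 1.42.0, limma-voom 3.58.1, no filter, a minimum count of 50, all 16 libraries, lane, a block on title ranges and each library left out; 2 more, added after seeing the data, kept the libraries with title ranges or left out marrow libraries 1 and 2.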

Additional observations from a re-analysis of the deposited data

Results flagged for a closer look

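A single library stood apart from the other 3 of its population, by Dixon's test at the 95% level, for 33 of 412 gene levels named in the text; chance flags about 1 in 20 groups. Many of these genes are near 0 in the population concerned, so that 1 library with a few counts is enough.

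Among microglia, library 2 held the highest level of several granule genes and of some other genes that were lower in microglia than in monocytes. It had 8.89 CPM of Ltf, 5.40 CPM of Ngp, 1.58 CPM of S100a8, 1.01 CPM of Oas3, 0.788 CPM of Myb, 0.450 CPM of E2f8 and 0.225 CPM of Cfb, and the other 3 libraries had at most 0.219 CPM of any of these. Library 2 was also lowest for Thbs1, at 14.6 CPM. Library 1 was highest for the proliferation genes Mki67 (5.77 CPM) and Top2a (4.16 CPM) and lowest for Fcgr4 (8.70 CPM). Library 3 was highest for Ciita (1.20 CPM) and P2ry1 (0.109 CPM) and lowest for Nr4a1 (0.766 CPM). Library 4 was highest for Ctsc (1034.7 CPM), Ctsf (440.3 CPM) and Cxcr4 (0.160 CPM).

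Among monocytes, library 1, the one read on another lane, was highest for Cxcr4 (42.1 CPM), C5ar1 (41.1 CPM), Cd14 (57.7 CPM), Fcgr4 (22.0 CPM), Pmp22 (0.690 CPM) and Slc1a3 (1.03 CPM). Library 4 was highest for mt-Co1 (11941.8 CPM), F13a1 (8980.8 CPM), Clec7a (744.9 CPM) and Cfp (382.8 CPM) and lowest for Sparc (0.156 CPM). Library 2 was highest for H2-Oa (1.43 CPM) and for Sall1 and Sall3 (0.110 CPM each, from 1 count), and library 3 for Gpr34 (3.62 CPM) and Gm4980 (0.402 CPM).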

How the results depend on the processing

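The main counts kept their size under every alternative run. Called genes numbered 8942 and lay between 7303 (only the libraries whose titles carry a number range) and 10075 (no filter on low counts), and between 8600 and 9090 when 1 library was left out. Lane as a term gave 8434 calls and lane 3 alone 8600. Libraries 3 and 4 of each population carry a number range in their titles, shared between the populations. The labels do not say what the ranges count, so they were not taken as pairs. Deviations of such pairs correlated at -0.011 and 0.04, which cannot tell whether they came from the same animals, as the cell types differ. With title range as a replicate block 8858 genes were called, and of the genes named only the call for Fos ended. Members of the NADPH oxidase list called higher were 2, Ncf1 added, with RLE factors, DESeq2, limma-voom or a minimum count of 50, and 1 to 2 when a library was left out. In the TGF-beta list 5 members were lower with all 16 libraries in the fit, where more genes pass the filter. With only the title-range libraries the calls for Bst2, Cyba, Hk3, Tfeb, Pcna, Irf2, Srgn, Lars2 and Rn18s-rs5 ended. Pcna was then at -0.1 (edgeR adjusted p = 0.765). Fos turned to 0.22 with only the title-range libraries and to 0.33 without marrow libraries 1 and 2. List medians moved with the filter, which changes the members tested: with a minimum count of 50 they were 1.12 for the purinergic, 2.29 for the chemoattractant receptor and -0.52 for the colony-stimulating factor list. The median of the granule list moved with the same 16 members tested, and ran from -12.56 to -7.07 with libraries left out. Medians of 2 mixed lists crossed 0: that of the disease-associated list reached 0.32 with only the title-range libraries, and that of the MHC class II list was -0.05 with no filter. With 4 libraries a population and no molecular identifiers, genes with few counts in one population have uncertain fold changes, and precision is that of these libraries.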

Other observations

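Genes not described so far differed by as much. Among abundant genes of no list with at least 4 counts in each population, the log2 fold change was largest for Pmepa1, an inhibitor of TGF-beta signalling (12.10), with 418, 508, 434 and 498 CPM in microglia and 0.197, 0.110, 0 and 0 CPM in monocytes, followed by Pald1, Pmp22, Gm4980 and Syngr1 with log2 fold changes of 11.74, 10.94, 10.94 and 10.75. Lrrc3 and Tspan7 had no count in monocytes and averaged 329 ± 41.5 and 264 ± 35.1 CPM in microglia (SD, n = 4), at least 5775-fold and 4599.8-fold higher. Tjp1, the tight junction scaffold ZO-1, had 225, 122, 241 and 191 CPM in microglia and no count in monocytes. Cd34, best known as a marker of blood progenitors, had 507, 537, 487 and 536 CPM in microglia and 9.21, 9.57, 7.64 and 14.2 CPM in monocytes, while Kit, another progenitor gene, had no count in microglia. Gp9, a platelet glycoprotein gene, averaged 29.5 ± 4.21 CPM in microglia and 0.224 ± 0.240 CPM in monocytes. Ighm, the immunoglobulin heavy chain gene, was abundant in both populations at 578 ± 21.3 CPM in microglia and 645 ± 50.1 CPM in monocytes.

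On the monocyte side, haptoglobin (Hp) averaged 0.143 ± 0.0387 CPM in microglia and 1187 ± 101 CPM in monocytes, and Emb, Emilin2, Adgre5, Iqgap2 and Plbd1 had log2 fold changes of -12.57, -11.84, -11.78, -11.73 and -11.24. Atp8b4, a lipid flippase, and F10, coagulation factor X, had no count in microglia and averaged 299 ± 21.3 and 203 ± 19.5 CPM in monocytes, at least 4119.9-fold and 2844-fold lower in microglia. Rn18s-rs5 and Lars2, a nuclear gene for a mitochondrial tRNA synthetase, varied within populations. The 18S-related Rn18s-rs5 had 1957, 981, 4286 and 2465 CPM in microglia and 10169.8, 7181, 7064 and 2673 CPM in monocytes, and Lars2 1875, 696, 3626 and 1310.2 CPM in microglia and 6999, 6417, 4338 and 1997 CPM in monocytes. Both genes were highest in brain library 3 among microglia and in marrow library 1 among monocytes, and lowest in marrow library 4, where mt-Co1 was highest at 11942 CPM.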
